A study of Caenorhabditis elegans with 4 samples.

Results

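The right arm of *Caenorhabditis elegans* chromosome IV was taken as the outermost of 3 equal parts of the chromosome, and a peak belonged to it when its midpoint lay beyond position 11662559 of the WormBase WS220 build. The authors' whole-series peak list of T09A5.8 chromatin immunoprecipitation (ChIP) placed 471 of its 14075 peaks there, which is 3.35% of the list on 5.82% of the length of chromosomes I to V and X. The lists of the ChIP replicates placed 144 of 3666 peaks there in replicate 1 and 159 of 3867 in replicate 2. The last whole-series peak outside the limit spans IV 11661993 to 11662152 with a score of 2.65, and the first inside spans IV 11691928 to 11692655 with a score of 10.27.

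T09A5.8 carries the symbol *cec-3* in the gene table of assembly WBcel235. The worms were hermaphrodites of the strain *fem-2(b245)*, a mutation on chromosome III, grown at 20 °C, and both ChIP samples and both input DNA samples carry it. The stage label reads young adult with a germline, while the growth protocol describes gravid adults, and extracts were made from whole worms, so the peaks average over all tissues. Ground worms were fixed with 1% formaldehyde for 10 min, immunoprecipitated with an affinity-purified antibody and sequenced. No wild-type or *cec-3* mutant sample entered the comparisons, and the input samples have no peak list used here. The labels do not tell separate cultures from repeat preparations, so the spread between replicates may be technical. The lists hold no read counts, so the depth of each sample is unknown.

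CEC-3 is a chromodomain protein, and chromodomains of this kind recognise methylation of lysine 9 on histone H3, which marks silent chromatin and in this worm gathers on the repeat-rich chromosome arms. *fem-2* encodes a phosphatase that promotes male development and sperm formation, and b245 is known as a temperature-sensitive allele. Chromosome IV also carries nearly all of the worm's piRNA genes, with 14714 of the 15363 piRNA genes of the WBcel235 table, or 95.78%. These are very short genes whose products guide the Argonaute protein PRG-1 to transposons and other foreign transcripts in the germline, and much of their cluster lies on the right arm.

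The right arm of IV was sparsely marked for an autosomal arm. Replicate 1 had 24.7 peaks per Mb and replicate 2 had 27.3, a mean of 26.0 ± 1.82 (SD, n = 2), and peaks covered 6.34% and 6.49% of its bases. The left arm of the same chromosome had 67.9 and 70.8 peaks per Mb, and its coverage was 22.2% and 22.8%. The values of the arms did not overlap between replicates, and the right arm was 2.67-fold less dense, a log2 ratio of -1.42 ± 0.06 (SD, n = 2). Counted in covered bases the left arm exceeded it 3.51-fold. An exact permutation of 2 values against 2 gave a two-sided p of 0.333, the smallest that such a permutation allows. It ignores that both arms were read from the same libraries, and it cannot decide the question at this size.

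The right arm still exceeded the centre of IV. The centre had 11.3 and 12.9 peaks per Mb in replicates 1 and 2, below both values of the right arm. The log2 ratio of right arm to centre was 1.10 ± 0.03 (SD, n = 2), or 2.15-fold. The same unpaired two-sided exact permutation test gave p = 0.333, the smallest that it allows. In the whole-series list the right arm had 80.8 peaks per Mb, against 235 on the left and 38.1 in the centre.

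Among the 10 autosomal arms, the right arm of IV had the lowest share of bases under peaks. Its coverage averaged 6.42 ± 0.106% (SD, n = 2), and the other 9 arms ranged from 7.41% on the left of V to 35.9% on the right of I. In the whole-series list it was also the lowest, at 5.75% against 6.66 to 37.3%. By number of peaks it was next to last in the replicates, since the left arm of V had 24.5 ± 1.82 peaks per Mb. The left arm of V was the sparser of the pair in each replicate, with 23.2 and 25.8, but not in the whole-series list, where it had 86.9 peaks per Mb and the right arm of IV, at 80.8, was the lowest of the 10. The arms of X were not ranked. In the mean of the replicates both were sparser than the right arm of IV. The left arm of X had 16.3 peaks per Mb and 5.73% coverage, and the right had 7.62 and 1.59%. In the whole-series list the right arm of X was again sparser, at 26.8 peaks per Mb and 1.37%. The left arm of X was not, at 88.4 and 9.82%. No test was made over arms, each of which is a single unit.

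**Figure D1:**
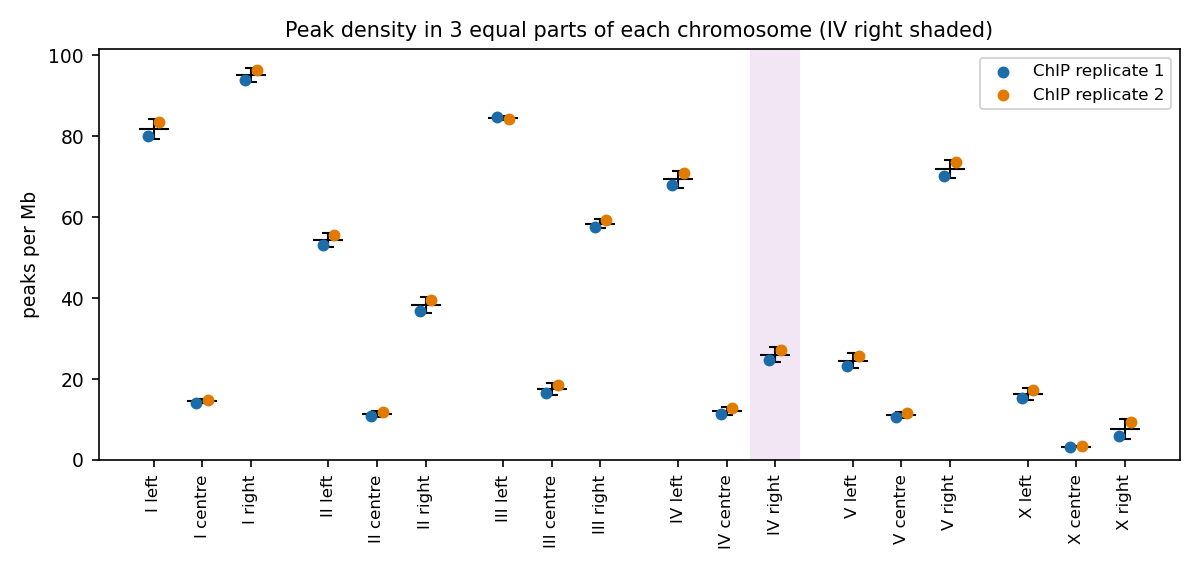
Peaks per Mb (vertical axis) in the left, centre and right of 3 equal parts of each chromosome. Points are the ChIP replicates, and the bar with whiskers is their mean and SD (n = 2). The shaded right arm of IV, at 24.7 and 27.3, lies near the left arm of V and well below the left arm of IV at 67.9 and 70.8.

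Peaks on the right arm of IV were narrow as well as few, though some other arms had peaks of similar width. The median width was 1766 bp in replicate 1 and 1683 bp in replicate 2, against 2194.5 and 2020 bp on the left arm and 2067.5 and 2043 bp over the whole lists. Whole-series peaks had a median width of 352 bp on the right arm and 411 bp on the left. By this median the right arm of IV ranked 8 among the 10 autosomal arms. The other 9 ran from 337.5 bp on the left of V to 440 bp on the right of V. In replicates 1 and 2 the right arm of III was about as narrow, with medians of 1755 and 1716 bp. On the right arm of IV, peaks of 10 kb or more were 3 of 144 in replicate 1 and 3 of 159 in replicate 2. They were 5.29% of the whole list in replicate 1 and 4.86% in replicate 2. The whole-series list had 1 such peak among the 471, and 0.54% of that list reached this width. These counts on the arm are too small for a firm comparison.

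In the replicate lists, the median score was lower on the right arm than on the left arm or in the centre. The authors' caller gave each peak a score whose scale is not stated, and scores are used here to describe and rank peaks within a list, and replicates are compared only by rank. The median score on the right arm was 262.74 in replicate 1 and 393.22 in replicate 2, against 455.27 and 583.23 on the left arm. The centre of IV, though sparser than the right arm, had medians of 422.5 and 677.01. In the whole-series list the medians were close, at 6.51 on the right, 6.725 on the left and 6.55 in the centre. Many peaks of the replicate lists carry the same high score of 3100. On the right arm 14 peaks of replicate 1 and 17 of replicate 2 reached it, which is 9.72% and 10.7% of them, against 12.8% and 14.9% of the whole lists.

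Binding was spread in small sites along the arm, apart from one clump. The arm was divided into 59 bins of 100 kb, of which the first and last are shorter. Median coverage over the bins was 4.26% as the mean of the replicates, and 32 bins were under 5%. Coverage was over 15% in 4 bins, against 32 of 58 bins on the left arm. The bins from 12.8, 13.3 and 13.4 Mb were at 17.8, 18.6 and 16.5% in replicate 1 and 16.9, 16.6 and 20.5% in replicate 2. The bin from 12.8 Mb lies inside 13 Mb, and the bins from 13.3 and 13.4 Mb lie between 13 and 14 Mb. The fourth bin, which is the clump, lies much nearer to the chromosome end.

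The most covered bin runs from 16.4 to 16.5 Mb, and peaks covered 41.7 ± 0.243% of it (SD, n = 2). It was the 1 bin of the arm above 40%, where the left arm had 13 of 58, and it held 11.2% of all bases under peaks on the arm. Over the genome, 97 of 999 full bins were more covered, so this level was also passed outside this arm. Without it, coverage of the arm was 5.72% and 5.88% in replicates 1 and 2, and 5.16% in the whole-series list.

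**Figure D2:**
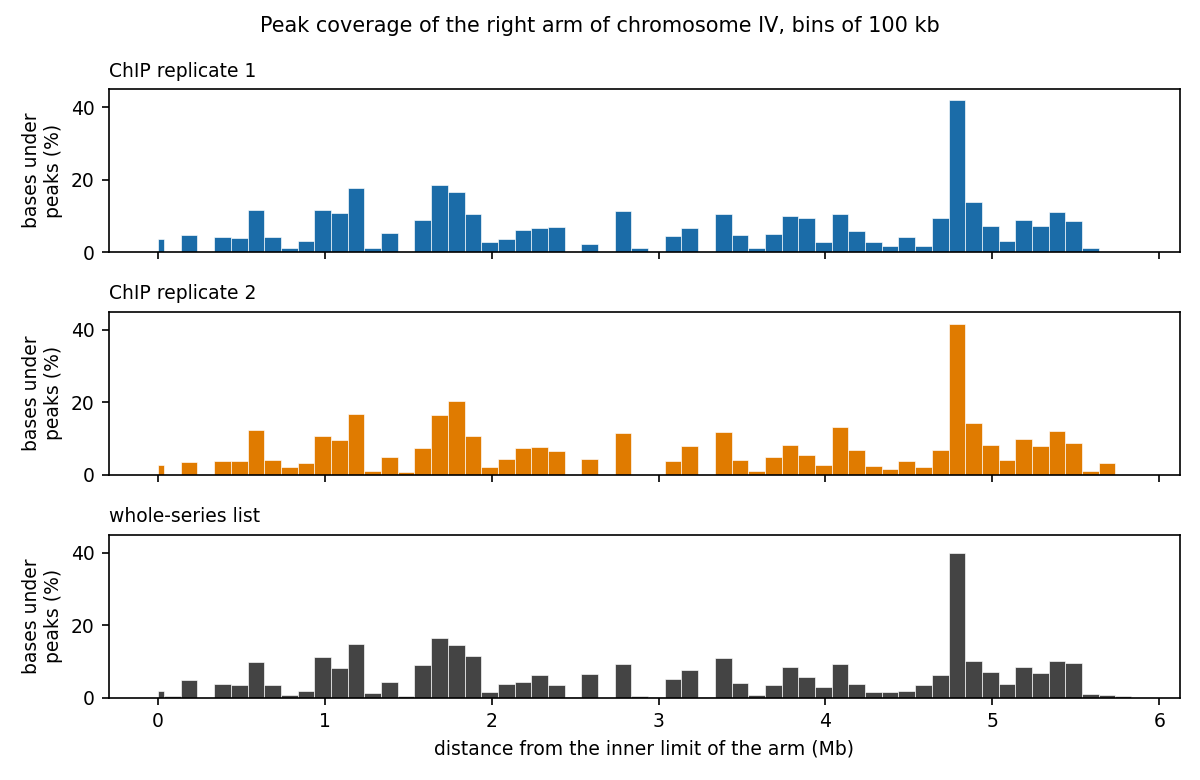
Share of bases under peaks (vertical axis, percent) in bins of 100 kb along the right arm of IV, by distance from the inner limit of the arm in Mb, one panel per list. The lists show the same profile of low bins, with 1 bin that stands out at 41.9% and 41.6% in replicates 1 and 2 and at 39.9% in the whole-series list.

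The clump is made of wide domains that all lists drew alike. Joining whole-series peaks across gaps of up to 500 bp turned the 471 peaks into 293 domains, of which 192 were single peaks, and 3 domains were 10 kb or wider. All 3 of these have midpoints within the most covered bin. The widest spans IV 16487913 to 16504035, or 16.123 kb, and holds the highest-scoring peak of the arm. Replicate 1 drew 1 peak there from 16487734 to 16504331 and replicate 2 drew 1 from 16487675 to 16503638, both with a score of 3100. The starts of the replicates' peaks lie within 100 bp of each other.

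The other wide domains of the clump lie on its inner side, nearer the middle of the chromosome. One spans IV 16400624 to 16413125 and was 100% covered by a peak of replicate 1 and 95.8% covered by a peak of replicate 2. The next spans IV 16417077 to 16429128, with coverage of 100% and 95.3%. Between these domains and the widest one lie only small sites, such as IV 16458023 to 16459767 in replicate 1, which scored 182.46 there and 532.39 in replicate 2.

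**Figure D3:**
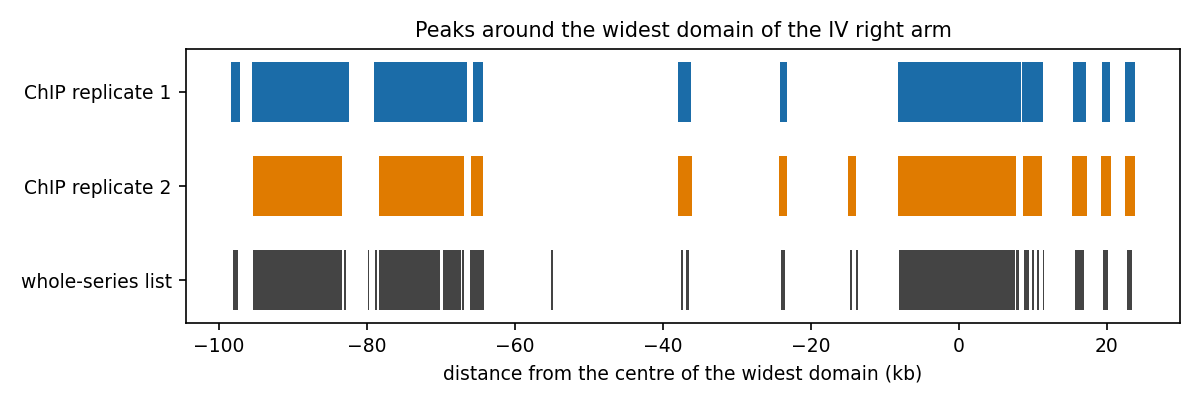
Peaks of each list around the widest domain of the right arm of IV, by distance from the centre of that domain in kb. Bars are peaks drawn to scale. All lists mark the same 3 wide domains, which the whole-series list breaks into more and shorter peaks.

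Outside the clump the widest domains were shorter. The fourth spans IV 12812644 to 12822091, or 9.448 kb, as a single whole-series peak with a score of 62.03, and a peak with a score of 3100 covered it fully in each replicate. The fifth spans IV 14838341 to 14846241, where 8 whole-series peaks were joined. Replicate 1 covered 82.2% of it with 2 peaks, the higher of which scored 1068.26, and replicate 2 covered 99.4% with 1 peak of score 3026.4. That site was thus drawn as one stretch in replicate 2 and as a broken one in replicate 1.

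The strongest sites were shared between replicates but scattered over the arm. By whole-series score, the 10 highest peaks found in both replicates all reached 47.22. Members in one replicate scored at most 24.78 and members in neither at most 20.03, so the 10 are also the highest of the arm. They begin with IV 16487913 to 16503524, which scored 106.08. The second, IV 16644057 to 16646388, scored 96.66 although it is only 2332 bp wide, and lies beyond the clump. The third, IV 16417908 to 16425807 with 93.4, and the fifth, IV 16400624 to 16410579 with 71.11, are parts of the clump. The fourth, IV 12196369 to 12201708 with 75.79, lies in the inner part of the arm.

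The remaining 5 of the 10 also fall outside the clump. On the inner part of the arm, IV 12812644 to 12822091 scored 62.03 and IV 12294940 to 12297892 scored 49.17. Farther out, IV 15015132 to 15020025 scored 64.87 and IV 15473703 to 15476394 scored 47.42. The tenth, IV 16094575 to 16095784, scored 47.22 and is the narrowest of the 10 at 1210 bp. It was the one peak of the 10 whose partner in replicate 1 stayed below 3100, at 1676.86, while its partner in replicate 2 carried 3100. For the other 9 the partners in both replicates scored 3100, apart from 3106.01 for the partner of the fifth in replicate 1, so the replicate lists leave most of them tied.

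Each stretch of 1 Mb had a leading peak that both replicates found, though their strength differed. From the arm limit to 12 Mb the highest whole-series score was 16.51, at IV 11827534 to 11828510, with 478.42 in replicate 1 and 793.02 in replicate 2. From 13 Mb the highest was 42.15, at IV 13314157 to 13317504, and its partners carried 3100 in both replicates. From 14 Mb it was 38.58, at IV 14783319 to 14786822, whose partner scored 3100 in replicate 1 but 252.34 in replicate 2, below the median of 393.22 for the arm in that list. From 17 Mb to the end it was 35.64, at IV 17089400 to 17090487, with 746.29 and 1083.68. The innermost stretch, with the lowest leading score, is also the shortest.

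In the replicates, the peak density of the piRNA-rich part was close to that of the inner part of the arm. From 14 to 17 Mb, which lies inside the piRNA gene cluster, replicate 1 had 24.0 peaks per Mb and replicate 2 had 25.7. From the arm limit to 13 Mb, outside the cluster, they had 21.7 and 23.2. The means were 24.8 ± 1.18 and 22.4 ± 1.06 (SD, n = 2), and the log2 ratio was 0.15 in both replicates, or 1.11-fold. Each stretch was denser in replicate 2, and the ranges of the stretches did not overlap, but they lay less than 1 peak per Mb apart. The stretch from 13 to 14 Mb was the densest, with 31.0 and 37.0 peaks per Mb, and beyond 17 Mb there were 24.3 and 28.3.

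Coverage of the piRNA-rich part, which holds the clump, was slightly higher. Peaks covered 6.49% and 6.57% of the stretch from 14 to 17 Mb, against 5.65% and 5.45% from the arm limit to 13 Mb, a log2 ratio of 0.23 ± 0.05 (SD, n = 2). With the most covered bin of each stretch left out, a step added after the data were seen, the log2 ratio was 0.21 ± 0.05. With only the clump's bin left out, which can only lower the ratio, it was -0.06 ± 0.05. The whole-series list had 84.3 peaks per Mb from 14 to 17 Mb and 60.6 from the arm limit to 13 Mb, or 1.39-fold, and 1.19-fold in covered bases. Individual piRNA genes could not be placed against the peaks, since the gene positions at hand are of another build.

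Some long stretches of the arm had no peak in any list. The longest spans IV 14256145 to 14450980, or 194.836 kb, and lies in the piRNA-rich part. The next were IV 12033482 to 12196119 and IV 11870324 to 12021393, of 162.638 and 151.07 kb, both in the inner part and close to each other. Neither replicate had a peak base in 7 of the 59 bins, and in 2 of these bins the whole-series list had none either.

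The replicates found largely the same sites on the arm. Of the 144 peaks of replicate 1, 128 had a partner in replicate 2, or 88.9% (95% Wilson interval 82.7 to 93.0%), against 89% over the whole list. Of the 159 of replicate 2, 131 had a partner in replicate 1, or 82.4% (75.7 to 87.5%), against 85.3% over the whole list. Both shares were near the background, with differences from the rest of the list of -0.15 percentage points (95% Newcombe interval -6.41 to 4.14) and -3.07 (-9.83 to 2.19). The lists shared 327.8 kb, which is 88.6% of the bases under peaks in replicate 1 and 86.6% in replicate 2. The intervals hold counting error alone and take peaks as independent, which neighbours are not.

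Shared sites were drawn with close borders and ranked alike. Of 134 overlapping pairs, 116 were one-to-one, and in these the starts differed by a median of 75.5 bp and the ends by 79 bp. The scores of the 134 pairs had a Spearman's rho of 0.79, and those of the one-to-one pairs 0.88, near the 0.89 of the 2499 one-to-one pairs elsewhere. Pairs of peaks are not independent replicates.

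**Figure D4:**
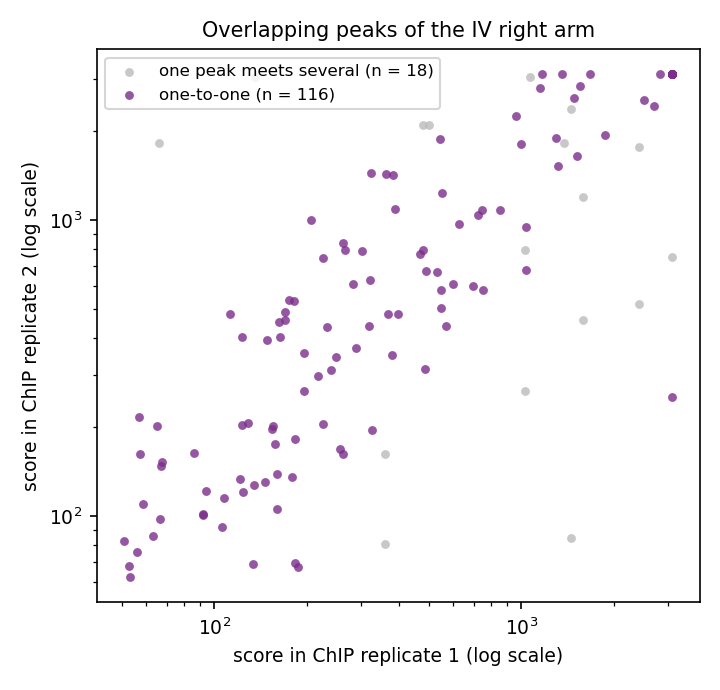
Scores of overlapping peaks on the right arm of IV in ChIP replicate 1 (horizontal, log scale) and ChIP replicate 2 (vertical, log scale). The scores of the 116 one-to-one pairs rise together, with a Spearman's rho of 0.88, and 1 pair lies apart at 3100 and 252.34.

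Sites found in a single replicate were weak. The 16 unshared peaks of replicate 1 had a median score of 98.8, against 325.6 for shared peaks, and were 1232 bp wide in the median, against 1861 bp. For the 28 of replicate 2 the median score was 89.5 against 518.59, and the median width 1048 bp against 1851 bp. None of the unshared peaks scored above 239.36 in replicate 1 or 245.96 in replicate 2. A wider peak meets an overlap of at least 1 bp more easily, so width is not independent of this split.

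The 471 whole-series peaks fell into 229 that overlapped a peak of both replicates, 70 that overlapped a peak of one and 172 that met neither. The share in both was 48.6% (95% Wilson interval 44.1 to 53.1%), against 53.8% of all whole-series peaks, and the share in neither was 36.5% (32.3 to 41.0%), against 27%. A low share in both was not particular to this arm. The other 9 autosomal arms ran from 47.4% on the right of II to 60.5% on the left of III, with 49.5% on the right of III. Set against the rest of the list, the share in both on the right arm of IV was lower by 5.4 percentage points (Newcombe interval of the difference -9.96 to -0.817). These intervals take peaks as independent, but 37.9% of the gaps between neighbouring members were 500 bp or less, so they are likely too narrow. Those in one replicate were 14.9%, against 19.2% of the list, and 34 of them met replicate 1 and 36 met replicate 2.

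The gap to the rest of the list was not the same at all scores. With the whole list ranked by score into 4 groups, the members of the third group, which scored 6.79 to 12.81, were in both replicates in 50.9% of 114 cases, against 66.2% elsewhere (difference -15.3 points, interval -24.5 to -6.19). In the highest group the order was the other way, with 92.7% of 110 members against 84.9% (difference 7.82, interval 1.29 to 11.6). In the lower groups the intervals included 0, with 23.0% against 29.1% in the first and 34.3% against 37.4% in the second. These intervals are not adjusted for the 4 comparisons, and they too take neighbouring peaks as independent.

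Members that met no replicate peak were the narrowest and lowest in the median. Their median width was 223 bp and their median score 4.36, against 330.5 bp and 5.66 for members in one replicate and 640 bp and 10.49 for members in both. Most lay apart from replicate peaks, at a median distance of 4.08 kb, and 45 of the 172 were within 1000 bp of one. The highest-scoring of them is IV 16614933 to 16615180, with a score of 20.03, 26.981 kb from a peak of replicate 1. Of the next 4, IV 12637985 to 12638574 scored 15.53 and IV 13586441 to 13586794 scored 10.73, each more than 10 kb from a replicate peak. IV 13669376 to 13669743 scored 10.45 and lay 1.014 kb from a peak of replicate 2, and IV 16245011 to 16245235 scored 10.14. The groups rest on an overlap of at least 1 bp, which a wider peak meets more easily. Score rose with width over the 471 peaks, with a Spearman's rho of 0.72. The order of the groups in width and score is therefore not independent of the overlap rule.

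**Figure D5:**
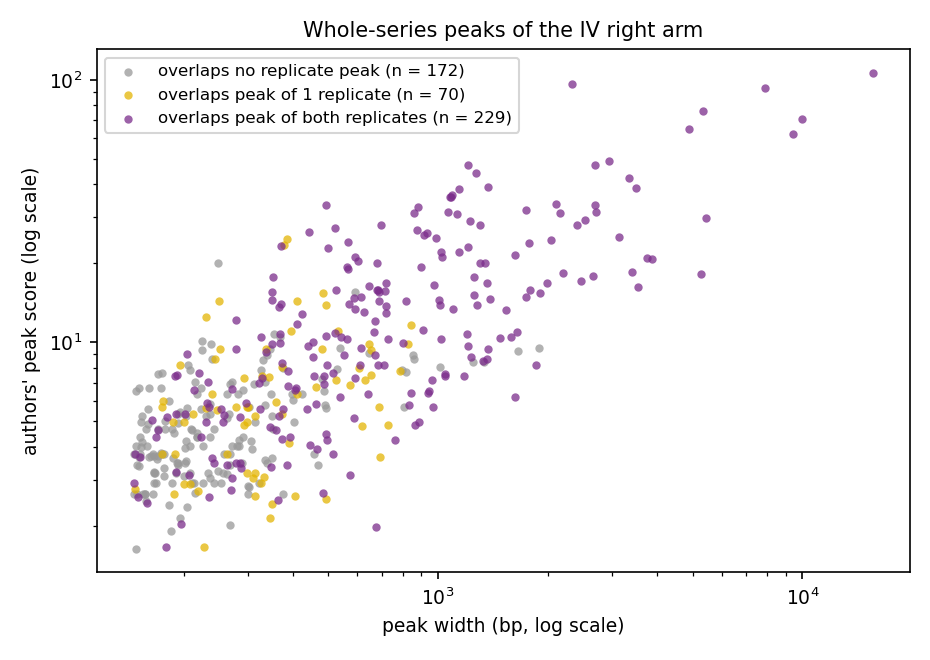
Width in bp (horizontal, log scale) and the authors' score (vertical, log scale) of the 471 whole-series peaks of the right arm of IV, coloured by how many replicates have an overlapping peak. The 172 without one gather at the narrow and low corner, with a median of 223 bp and 4.36.

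The whole-series list divided the ground of the replicate peaks more finely. A peak of replicate 1 held several whole-series peaks in 70 of 144 cases, and a peak of replicate 2 in 66 of 159, with up to 11 in a single peak. On the arm, 99.3% of the replicate 1 peaks and 96.9% of the replicate 2 peaks met a whole-series peak, against 99.7% and 99.5% of the whole lists. Of the bases under whole-series peaks on the arm, 75.3% lay under peaks of both replicates and 15.5% under neither. These base shares and the counts of peaks that held several are given for the arm alone. Over the whole lists the whole-series peaks were also narrower, with a median of 395 bp against 2067.5 and 2043 bp in replicates 1 and 2. Over the 59 bins of the arm, coverage in the whole-series list minus the mean of the replicates ran from -3.87 to 3.26 percentage points.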

How the data were processed

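Reads were aligned with BWA to ce10, per the submitters' processing notes, and positions are on WormBase WS220, per the file headers. The authors deposited a peak list for each ChIP replicate, made with MACS, and a whole-series list made with MACS v2, each peak with a score from the caller, per the source column of the files. Not given in the sources used here are the control, the thresholds and how the whole-series list draws on the replicates.

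The length of IV was taken as 17493838, the largest peak end, and peaks were placed by midpoint. Overlap means at least 1 bp. Shares carry 95% Wilson intervals, and differences of shares carry Newcombe intervals. Functions were tested on simulated data. Named regions are the 10 highest-scoring shared members, the 5 widest domains, the 5 highest unshared members, the leader of each 1 Mb, the 3 longest bare stretches and the members at the limits. The members, stretches and rules were chosen with earlier results of these data known. Alternatives covered thresholds, overlap rules, limits, lists and replicates. Gene annotation and sequence under the peaks are not analysed here, since no genome of WS220 was used. Tools were scipy 1.17.1, numpy 2.4.6, statsmodels 0.14.6, pandas 2.3.3 and matplotlib 3.10.9 in Python 3.11.15.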

Additional observations from a re-analysis of the deposited data

How the results depend on the processing

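The sign of the right-to-left and right-to-centre ratios held under every alternative run, and leaving out either replicate moved them only to -1.46 to -1.38 and 1.08 to 1.13. With only peaks at or above the median score of each list, density fell to 11.4 peaks per Mb, coverage to 4.27%, the share of members in both replicates to 40.97% and rho to 0.68. The share of replicate 1 overlapped by replicate 2 rose to 94.9%, and the log2 ratios to the left arm, to the centre and of the piRNA-rich to the inner stretch were -1.75, 0.76 and 0.24. In the whole-series list density was 80.8, coverage 5.75%, and the ratios to the left arm and of the piRNA-rich stretch -1.54 and 0.48. Covered bases gave -1.81, 0.91 and 0.23 for the 3 ratios. Arms of 1 in 4 parts of the chromosome, in place of 1 in 3, gave -1.68 and 0.96 for the arm ratios, 6.74% coverage and a rho of 0.76. The piRNA-rich ratio was 0.27 from 13 to 17 Mb and 0.27 from 13 Mb to the end. With the most covered bin of each stretch left out it was 0.27 for peaks and 0.21 for bases. Without the bin of the clump alone, which can only lower it for bases, it was 0.064 for peaks and -0.063 for bases, and coverage of the arm was 5.801%. The limit at the chromosome end and the steps that leave out bins were chosen after seeing the data. Peaks widened by 250 bp put 56.5% of members in both replicates. One-to-one pairs had a rho of 0.88. Without joining, 1 whole-series domain reached 10 kb in place of 3. Apart from changes that an alternative's construction brings, the cause was not tested. Ratios between stretches were formed within each ChIP list, and so are paired by library. Of ChIP against input, no paired analysis was possible because only ChIP lists were used here. Depth is unknown, so how far it limits the number of peaks is unknown too.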

Other observations

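The outer end of the right arm of IV was nearly bare. In the last 300 kb, replicate 1 had 1 peak, replicate 2 had 2 and the whole-series list had 4, and the peaks covered 0.363%, 1.498% and 0.694% of bases. The same stretch at the other 11 chromosome ends had a mean coverage of the replicates between 5.00% and 59.2%, with a median of 21.2%. The left end of IV had 7.61 ± 0.156% (SD, n = 2). The last peak ended 208.6 kb before the chromosome end in replicate 1, at 17285262, and 101.6 kb before it in replicate 2, at 17392218. The latter peak, from 17388833, scored 218.57, is 3386 bp wide and has no partner in replicate 1. The last whole-series peak, IV 17493465 to 17493838 with a score of 8, met no replicate peak and sets the chromosome length used here. The ends were compared after seeing the data, and no test was made over them.

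Width and score moved together on the arm, with a Spearman's rho of 0.72 over the 471 whole-series peaks, 0.80 over the 144 peaks of replicate 1 and 0.76 over the 159 of replicate 2. These are descriptions across peaks of 1 list, which share a library and a caller.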
